A study of Mus musculus with 8 samples.

Results

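The genes described here are named for the protein factors that start and extend a polypeptide on the ribosome. They were chosen by name: every gene of the deposited table whose symbol begins with Eif followed by a digit from 1 to 6, or with Eef followed by 1 or 2, without the 13 pseudogenes whose symbols hold -ps. The rule found 89 of 55414 genes. Of these, 69 were known factors, subunits, kinases or modifying enzymes, and 20 were predicted copies or other names, such as the Eif1ad-numbered genes and Eif2c5, an older type of name for an Argonaute gene. Of the 20, Eif2c5 is annotated as a noncoding RNA and Eif1ad9 as an unprocessed pseudogene.

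The libraries came from the colons of mice aged 4 weeks, with 4 libraries of WT and 4 of Emb knockdown animals. Cells were dissociated, stained for CD24 and CD56 and sorted as enteric neurons (neurons of the gut wall) into tubes of about 250 cells, and RNA was copied and amplified with a Smart-seq kit. Sex, strain and knockdown method were not given in the sources used here, and neither was the number of mice behind a tube. The p-values therefore measure the spread between libraries, part of which may be technical. The series title names the effect of Emb knockdown on enteric neuron development as its subject; Emb encodes the membrane glycoprotein embigin.

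Initiation begins when eIF2, bound to GTP, brings the initiator tRNA to the small ribosomal subunit, with eIF1, eIF1A, eIF5 and the large scaffold eIF3. The eIF4F complex (the cap-binding eIF4E, the scaffold eIF4G and the helicase eIF4A) loads this particle on the capped messenger RNA, and 4E-binding proteins block eIF4E when mTORC1 is inactive. eIF2B recharges eIF2 with GTP, and 4 eIF2 kinases, each answering a different stress, shut that step. In elongation eEF1A delivers aminoacyl-tRNA, the eEF1B subunits recharge eEF1A, and eEF2 moves the ribosome along by a codon. Neurons use these controls to adjust local protein synthesis in axons and dendrites.

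Several elongation factor and eIF3 messenger RNAs belong to the TOP class, which begin with a C followed by a run of pyrimidines (C or T) and are controlled by mTORC1. The transcription start windows below are shown because the results below turn on eIF3 subunit genes and TOP genes. Each holds the 15 bases before and the 15 bases from a RefSeq start on GRCm38.p6, written 5′ to 3′ on the gene's strand, and the capitals mark the longest unbroken run of C and T.
Eif3f (TOP list, chr7:108934400-108934429, + strand): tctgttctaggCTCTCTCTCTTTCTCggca
Eef1a1 (TOP list, chr9:78481710-78481739, - strand): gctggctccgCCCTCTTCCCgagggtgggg
Eef1b2 (TOP list, chr1:63176816-63176845, + strand): tggacctgcagTTCCgccggaagtagccga
Eef2 (TOP list, chr10:81176616-81176645, + strand): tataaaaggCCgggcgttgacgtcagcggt
Eif3c (chr7:126566352-126566381, - strand): CTCacctgctcagagggactcggcagctta
Eif3a (chr19:60790679-60790708, - strand): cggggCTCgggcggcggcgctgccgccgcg
Eif3d (chr15:77970810-77970839, - strand): gtggtagggccaTTTacgacagcgctggtc
The run of Eif3f was 15 bases long, a length reached or passed in 1.01% of the 32851 annotated starts of the RefSeq table. Members off the TOP list, whose windows are not shown, had long runs too. These were 19 bases in Eif2b5 (0.244% of the starts), 16 in Eif2s3x (0.673%) and 10 in Eif3l, while Eif4b of the TOP list had 7. The run of Eef1a1 was 10 bases long, reached in 5.34% of the starts, while Eef2 and Eif3a had no run above 3 bases in this window. The median run was 4 bases both over all starts and over the 68 starts of the 53 known factors present in the table. A run of pyrimidines in these letters is a description of the sequence and not a measured start site.

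The WT libraries held 698930 to 954191 counts and the Emb knockdown libraries 2024372 to 2712754. The small-subunit ribosomal RNA row Rn18s-rs5 took 3.55% to 13% of them in WT and 29.2% to 42.5% in Emb knockdown. Outside ribosomal RNA, 598214 to 856180 counts remained in WT and 1331021 to 1576724 in Emb knockdown. Emb itself stood at 5.15, 6.90, 16.7 and 22.5 TMM-normalised CPM (a gene's counts relative to its library's scaled total, the unit used throughout) in WT and at 3.33, 13.3, 1.62 and 3.13 in Emb knockdown. The groups overlapped, with Emb knockdown replicate 2 above WT replicates 1 and 2, and the log2 fold change was -1.24 ± 0.82 (SE, with a 95% interval of -3.03 to 0.55; edgeR quasi-likelihood adjusted p = 0.529, n = 4 each). Of the markers of the labelled cell type, Elavl3 was present in every library (151 to 270 CPM in WT, 75.1 to 117 in Emb knockdown), whereas Tubb3, the neuronal tubulin, stayed between 0 and 6.09 CPM. The 12 pan-neuronal markers summed to 299 to 417 CPM in WT and 226 to 610 in Emb knockdown. Of the 6 tested, 4 were higher and 2 lower, 1 and 0 of them at an unadjusted p under 0.05. Over all genes tested, 8.64% were higher and 4.64% lower at that p. Only Elavl3 had no overlap, with its 4 Emb knockdown values below its 4 WT values, as in 4.25% of all genes. The 12 enteric neuron markers summed to 74.6 to 219 CPM in WT and 107 to 234 in Emb knockdown. Of the 5 tested, 2 were higher and 3 lower, none at an unadjusted p under 0.05. The 12 macrophage markers summed to 2936 to 9124 CPM in WT and 4771 to 7072 in Emb knockdown, and none of them was without counts in either genotype. Of the 10 of them tested, 8 were higher and 2 lower, 6 and 1 of them at an unadjusted p under 0.05. In 4 the Emb knockdown values all lay above the WT values and in 2 all below, where 4.03% and 4.25% of all genes lay. C1qa, a complement gene of macrophages, stood at 510 to 2327 CPM in WT and 2812 to 5233 in Emb knockdown, and Itgam, an integrin of myeloid cells, at 1405 to 5765 against 138 to 632. The 7 endothelial markers summed to 553 to 2098 CPM in WT and 225 to 1485 in Emb knockdown. Of the 5 tested, 2 were higher and 3 lower, 0 and 1 of them at an unadjusted p under 0.05. The enteric glia markers summed higher than the macrophage markers in every library. Of the 6 tested, 5 were higher and 1 lower, 2 and 0 of them at an unadjusted p under 0.05. The part of these cells in the values below was not tested. In such pooled cells, fewer cells of a type and less RNA per cell cannot be told apart.

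The translation factors were measured at low levels. Of the 89 genes 50 passed the filter on low counts and were tested, all of them among the 69 known factors. The other 39 had a median of 21 counts summed over the 8 libraries. As a measure of background, each gene's count per exonic kilobase was set against that of 1505 olfactory, vomeronasal and trace amine receptor genes summed. The median known factor lay at 1.22 to 2.71 times this background in the WT libraries and at 2.39 to 5.59 times in the Emb knockdown libraries, against 0.719 to 1.17 and 1.43 to 1.77 times for the median protein-coding gene. Of the 69 known factors, 56 to 66 had at least 1 count in a WT library and 64 to 68 in an Emb knockdown library. After thinning to 598214 counts outside ribosomal RNA the numbers were 55 to 66 and 63 to 66.

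None of the 50 tested factors passed an edgeR adjusted p of 0.05, as did none of the 11353 genes tested (0% called). The DESeq2 Wald test on the same counts called 5 of the 50 (Eif3i, Eif3f, Eif4g2, Eif3a and Eef1b2; 10% against 6.6% of all genes). Without the filter on low counts edgeR called 6 of 87 (Eef1akmt2, Eif4enif1, Eif3c, Eif3e, Eif3j2 and Eif3b; 6.9% against 1.88% of all genes). Of those 6, all but Eif3j2 had 74.8% to 95.3% of their summed CPM in 1 Emb knockdown library. At an unadjusted p under 0.05, 9 of the 50 stood apart, which is 18% against 13.3% of all genes. Of these, 8 were higher in Emb knockdown, 16% against 8.64% of all genes, and 1 was lower, 2% against 4.64%. Of these 9, Eef1b2 passed the filter on low counts only through the Emb knockdown libraries and Eif3d only through the WT libraries, in each case the genotype where the gene was higher. The median log2 fold change of the 50 was 0.33 against 0.04 over all genes, and 28 were above 0 (56% against 51.6%). With Emb knockdown replicate 1 left out the members' median was -0.02. With library totals alone as the scale it was -0.39 beside an all-gene median of -0.67, and on the receptor scale 0.81 beside 0.64. Only Eif3i and Eif3f had 4 Emb knockdown values that all lay above the 4 WT values, 4% of the members against 4.03% of all genes. No member had all 4 below, against 4.25%, so 4% of members against 8.28% of genes did not overlap in either direction. Of the 50, 16 passed the filter on low counts in all libraries of both genotypes, 8 only through the Emb knockdown libraries, 11 only through the WT libraries and 15 through a mixture. The log2 fold change of 22 of the 50 kept its sign under every alternative that gave a value, and that of the other 28 turned under at least 1.

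**Figure D1:**
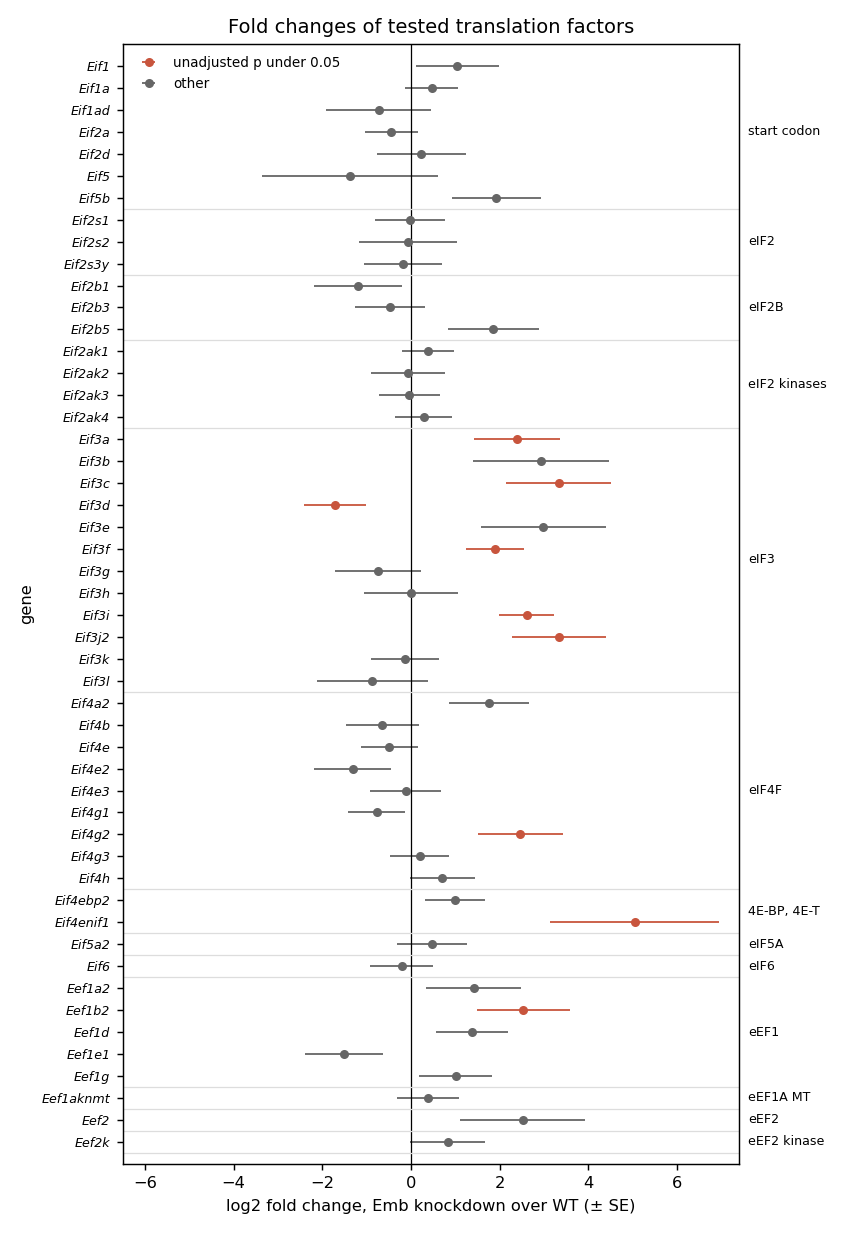
Log2 fold change of each tested translation factor (x axis, Emb knockdown over WT, ± SE, n = 4 libraries each), grouped by role. The 9 genes at an unadjusted p under 0.05 are in red, 8 of them to the right of 0, and each bar spans more than 1 log2 unit.

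A few factors in a few libraries made up most of the counts. Summed over the 89 genes, the factors stood at 2330, 5926, 1474 and 1649 CPM in WT and at 8240, 2551, 4653 and 1678 CPM in Emb knockdown. The means were 2844 ± 2087 and 4281 ± 2920 CPM (SD, n = 4 each), so the genotypes differed by less than the spread within each. The libraries with the highest sums were each led by a few genes. In WT replicate 2, Eif5 alone held 4441 CPM. In Emb knockdown replicate 3, Eif4enif1 alone held 2311 CPM. In Emb knockdown replicate 1, Eif5 (1696 CPM), Eif3c (1180 CPM) and Eef2 (1029 CPM) stood together. Of the 50 tested factors, 10 had over 50% of their summed CPM in 1 library, 20% against 10.9% of all genes tested. They were Eif4enif1, Eif5, Eif3e, Eif4a2, Eif3a, Eef1b2, Eif3c, Eif3l, Eef2 and Eif3b. Emb knockdown replicate 1 was the highest library for 14 of the 50. The 79 genes other than these 10 summed to 1783, 1285, 1186 and 1431 CPM in WT and to 2749, 2033, 1992 and 1446 CPM in Emb knockdown (1421 ± 261 against 2055 ± 535, SD). There 3 Emb knockdown libraries lay above all 4 WT libraries and Emb knockdown replicate 4 lay among them. The 10 genes left out were chosen from these same values, and a few genes still led the sums. Eif4g2 and Eif5b held 482 and 434 CPM in Emb knockdown replicate 1 and 532 and 383 CPM in replicate 2. In WT libraries they held at most 107 and 130 CPM. Whether the remaining genes differed was not tested.

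**Figure D2:**
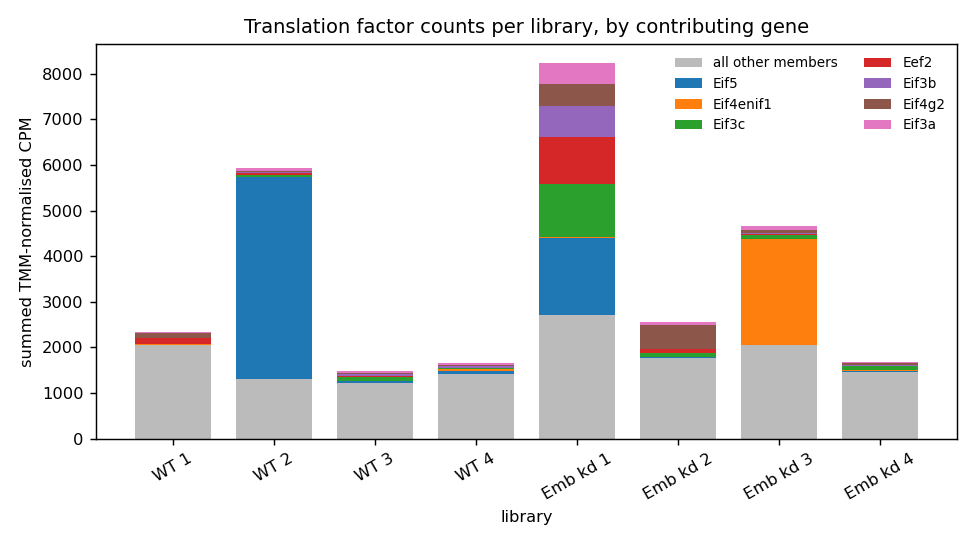
Summed TMM-normalised CPM of all 89 translation factor genes in each library (bars start at 0), split by 7 genes that contributed most in single libraries. Eif5 fills most of WT replicate 2, Eif4enif1 about as much as all the others in Emb knockdown replicate 3, and 6 of the 7 add to Emb knockdown replicate 1.

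**Figure D3:**
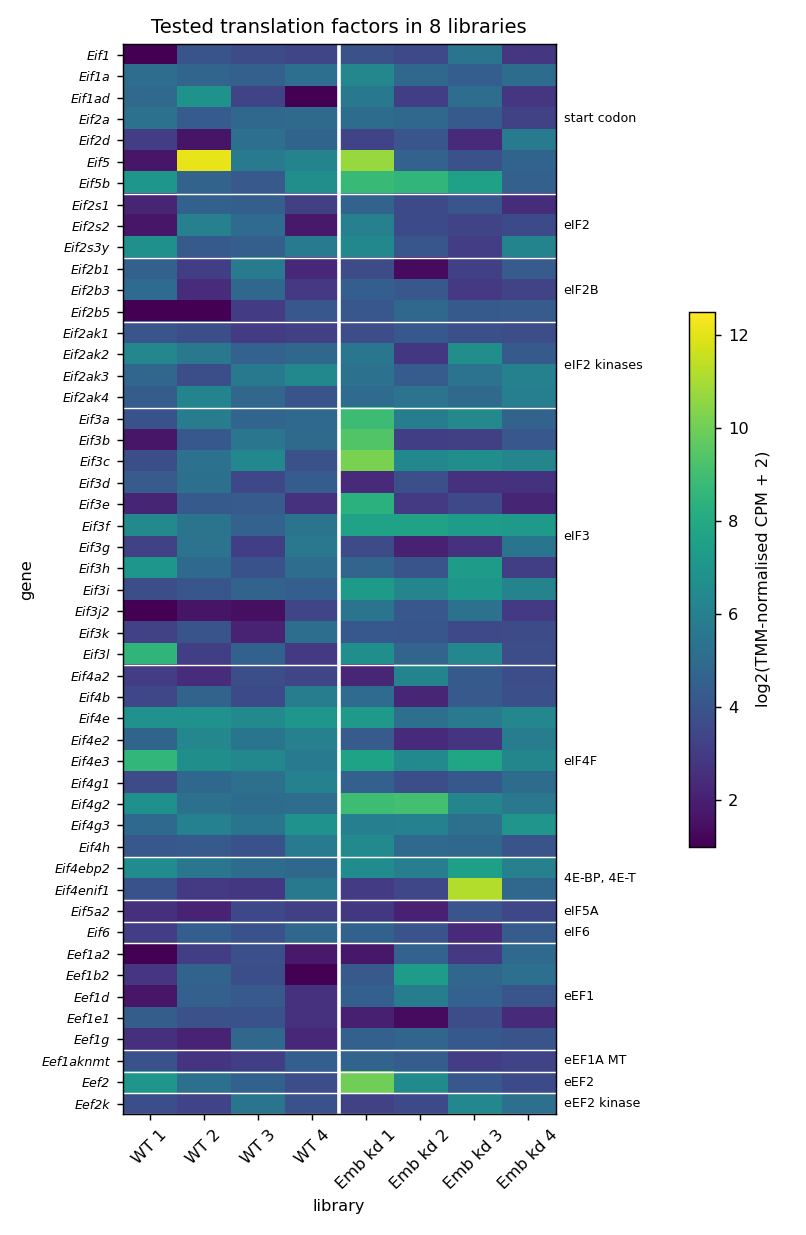
Log2(TMM-normalised CPM + 2) of the 50 tested factors (rows, by role) in the 8 libraries (columns, WT left of the white line). Single bright cells mark Eif5 in WT replicate 2 (4441 CPM) and Eif4enif1 in Emb knockdown replicate 3 (2311 CPM), while the Eif3f and Eif3i rows are brighter across all 4 Emb knockdown libraries.

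The eIF3 complex, the scaffold that holds the small subunit, the initiator tRNA and eIF4F together, held the members that stood apart most. Of its 14 genes 12 were tested; 7 were higher and 5 lower in Emb knockdown, 5 and 1 of them at an unadjusted p under 0.05, where 8.64% and 4.64% of all genes lay. The median log2 fold change of the 12 was 2.15, and it stayed above 0 on each scale tried, between 1.35 with library totals and 2.57 on the receptor scale. Without Emb knockdown replicate 1 it was 0.25, and with limma voom, which weights libraries on a log scale, 0.70. Over all 14 genes, with the filter on low counts left out, the median was 1.21. The subunits differed in the sign of the fold change and in the libraries that carried it.

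Eif3i, a WD-repeat subunit that binds eIF3b and eIF3g (ENSMUSG00000028798, chr4:129591960-129600648 on GRCm38, as all gene coordinates here), had the smallest p of the 50 tested members; without the filter on low counts that of Eif4enif1 was smaller. Its level was 11.6, 14.9, 23.6 and 19.7 CPM in WT and 153, 74.2, 132 and 69.5 CPM in Emb knockdown. All 4 Emb knockdown libraries lay above all WT libraries. Its log2 fold change was 2.61 ± 0.62 (SE, with a 95% interval of 1.26 to 3.97; edgeR unadjusted p = 0.00129, adjusted p = 0.275), and it ran from 2.38 to 2.86 when each library was left out. Relative to the receptor background, WT libraries lay at 1.84 to 4.16 times and Emb knockdown libraries at 17.8 to 49.1 times.

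Eif3f, a subunit of the octamer's MPN pair and a member of the TOP list (ENSMUSG00000031029, chr7:108934417-108942951), carried the long pyrimidine run shown above. It stood at 82.3, 41.4, 22.8 and 40.8 CPM in WT and at 196, 197, 159 and 147 CPM in Emb knockdown. Here too no Emb knockdown library reached down to the highest WT library, and the 4 Emb knockdown values lay within 147 to 197 CPM. The fitted log2 fold change was 1.90 ± 0.65 (SE, with a 95% interval of 0.47 to 3.33; edgeR unadjusted p = 0.0135, adjusted p = 0.309). It stayed between 1.73 and 2.39 without each library in turn. Eif3h, the partner of eIF3f in the MPN pair and also on the TOP list, had a log2 fold change of -0.00 ± 1.07 (WT 130, 28.7, 12.9 and 32.3 CPM, Emb knockdown 24.6, 13.8, 158 and 6.89 CPM). The difference between the partners was not tested.

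The large core subunit genes Eif3a and Eif3c were high in 1 library. Eif3c (ENSMUSG00000030738, chr7:126546455-126566411) stood at 11.6, 37.9, 79.9 and 12.6 CPM in WT and at 1180, 81.6, 102 and 72.7 CPM in Emb knockdown. The value of 1180 CPM came from Emb knockdown replicate 1, and the other 3 lay close to the highest WT value. For this gene the log2 fold change was 3.33 ± 1.18 (SE; edgeR unadjusted p = 0.0158, adjusted p = 0.311) and 1.22 without Emb knockdown replicate 1. Eif3a (ENSMUSG00000024991, chr19:60761117-60790658) stood at 12.9, 54.0, 25.1 and 28.1 CPM in WT and at 472, 54.1, 83.2 and 23.2 CPM in Emb knockdown. Its log2 fold change was 2.39 ± 0.97 (SE; edgeR unadjusted p = 0.0310, adjusted p = 0.332) and 0.82 without Emb knockdown replicate 1. Eif3b, the scaffold for eIF3g and eIF3i, and Eif3e, a PCI-domain subunit, showed the same library most plainly. Emb knockdown replicate 1 held 667 CPM of Eif3b against 1.29 to 43.4 CPM in the other 7 libraries, and 319 CPM of Eif3e against 2.51 to 17.5. The fitted log2 fold change of Eif3b was 2.93 ± 1.53 with that library and -1.22 without it.

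Eif3d, the subunit that can itself bind the cap of some messenger RNAs (ENSMUSG00000016554, chr15:77958998-77970813), was the only member that was lower at an unadjusted p under 0.05. It stood at 18.01, 35.6, 9.13 and 18.3 CPM in WT and at 3.33, 12.2, 4.32 and 4.39 CPM in Emb knockdown. The groups overlapped through WT replicate 3 and Emb knockdown replicate 2. Its log2 fold change was -1.71 ± 0.70 (SE, with a 95% interval of -3.24 to -0.19; edgeR unadjusted p = 0.0308, adjusted p = 0.332). The gene passed the filter on low counts only through the WT libraries, where it was higher. In the annotation Gm17638 overlaps 2151 bases of the gene's exons on the opposite strand, and 43.5% of its 31-base words occur in transcripts of other genes. With the strand setting and the treatment of reads with several matches unknown here, reads of these genes cannot be told apart.

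The remaining subunits Eif3g, Eif3k and Eif3l had log2 fold changes of -0.74 ± 0.97, -0.14 ± 0.76 and -0.88 ± 1.25 (SE); that of Eif3k was 0.49 on the receptor scale, 0.62 with voom and 0.78 without WT replicate 4. Eif3l was led by WT replicate 1, with 363 CPM against 5.62 to 103 CPM in the other 7 libraries, and its log2 fold change was 2.27 without that library. Eif3m was not tested, with 27 counts over the WT libraries and 25 over the Emb knockdown libraries.

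**Figure D4:**
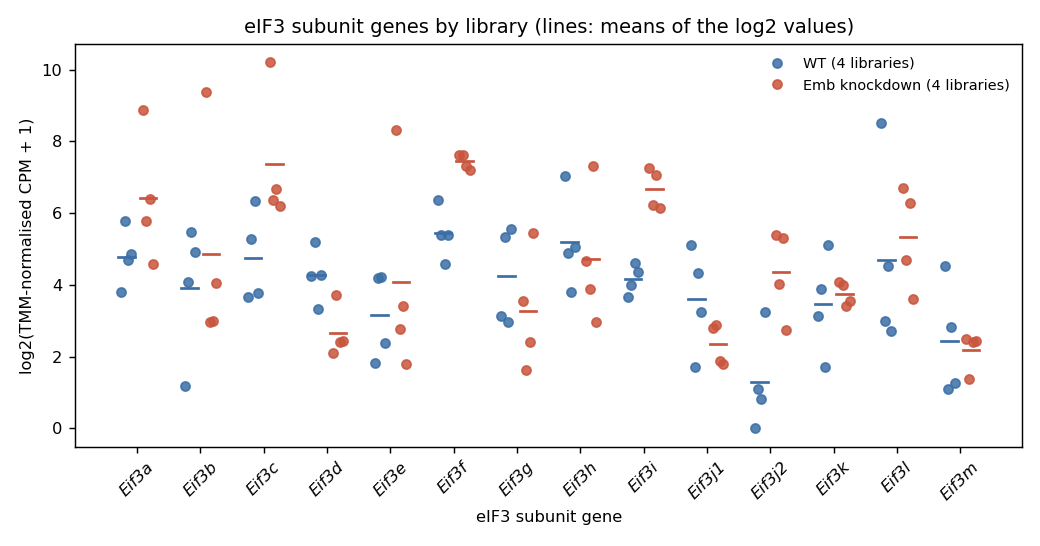
Log2(TMM-normalised CPM + 1) of the 14 eIF3 subunit genes in each library (points, 4 per genotype; lines are means of the log2 values). Eif3f and Eif3i are separated by genotype, while the highest point of Eif3a, Eif3b, Eif3c and Eif3e is Emb knockdown replicate 1.

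eIF3j, a loosely bound subunit that sits near the decoding site, has 2 near-identical genes in the mouse, Eif3j1 and Eif3j2. Eif3j2 stood at 0, 1.15, 0.761 and 8.43 CPM in WT and at 40.6, 15.4, 38.4 and 5.64 CPM in Emb knockdown, with a log2 fold change of 3.33 ± 1.06 (SE; edgeR unadjusted p = 0.00905, adjusted p = 0.302). Eif3j1 (ENSMUSG00000027236, chr2:122028546-122056598) was not tested, and its counts went the other way: 26, 2, 25 and 6 in WT and 9, 12, 5 and 4 in Emb knockdown. Of the pair's counts, Eif3j2 held 0%, 33.3%, 3.85% and 50% in WT and 87.1%, 70.7%, 93.4% and 69.2% in Emb knockdown. The shares did not overlap between the genotypes, on totals of only 3 to 76 counts per library. Together the pair stood at 18.4 ± 12.3 CPM in WT and 29.4 ± 17.7 CPM in Emb knockdown (SD, n = 4 each), which differ by less than the spread. Of the 31-base words of Eif3j2, 94.9% also occur in other genes' transcripts, and for Eif3j1 the share was 57.7%. How reads were divided between the copies is unknown here, so the level of each copy is uncertain.

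The factors that select the start codon did not stand apart. Of 9 genes 7 were tested, 4 higher and 3 lower, none at an unadjusted p under 0.05, with a median log2 fold change of 0.23 that was -0.59 with library totals alone. Eif5, the GTPase-activating protein of eIF2 (ENSMUSG00000021282, chr12:111538016-111546752), had the widest spread of all members. It stood at 1.29, 4441, 49.4 and 70.3 CPM in WT and at 1696, 22.8, 12.4 and 24.4 CPM in Emb knockdown. A single library of each genotype was far above the rest, and the other 6 lay at or below 70.3 CPM. The fitted log2 fold change was -1.38 ± 1.98 (SE) with all libraries and 3.56 without WT replicate 2. Eif5b, the GTPase that joins the ribosomal subunits, stood at 130, 23.0, 16.7 and 101 CPM in WT and at 434, 383, 188 and 21.3 CPM in Emb knockdown. In all, 3 Emb knockdown libraries lay above every WT library, and the log2 fold change was 1.92 ± 1.01 (SE; edgeR adjusted p = 0.426). Eif1a, the factor that keeps the decoding site open, had 21.3 to 35.1 CPM in WT and 19.5 to 78.6 CPM in Emb knockdown, a log2 fold change of 0.46 ± 0.60 that was -0.35 when only library totals were scaled and -0.10 when Emb knockdown replicate 1 was left out.

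The eIF2 subunits and their exchange factor gave no called difference either. Eif2s1, which encodes the subunit phosphorylated under stress, stood at 2.57, 21.8, 20.5 and 7.03 CPM in WT and at 23.3, 10.1, 14.6 and 3.76 CPM in Emb knockdown. The ranges overlapped almost completely. For this gene the log2 fold change was -0.03 ± 0.78 (SE, with a 95% interval of -1.74 to 1.68) and 0.61 on the receptor scale. For the third subunit, the Y-linked Eif2s3y had counts in every library (17.2 to 108 CPM in WT, 6.48 to 81.3 CPM in Emb knockdown), and the X-linked Eif2s3x had none in WT replicates 2 and 4 and in Emb knockdown replicate 4. Of the 5 eIF2B genes 3 were tested, Eif2b5 with a log2 fold change of 1.86 ± 1.02, Eif2b1 with -1.20 ± 0.99 and Eif2b3 with -0.47 ± 0.79 (SE). Eif2b1 had -0.20 without WT replicate 3, and Eif2b3 had 0.27 on the receptor scale and 0.052 without WT replicate 1. Eif2b5, the catalytic subunit, had no count in WT replicates 1 and 2, stood at 6.09 and 15.5 CPM in the other WT libraries and at 15.3 to 27.6 CPM in Emb knockdown. It passed the filter only through the Emb knockdown libraries.

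All 4 eIF2 kinase genes were tested and none had an unadjusted p under 0.05. Eif2ak1, the heme-regulated kinase, stood at 14.2, 11.5, 6.09 and 7.03 CPM in WT and at 11.3, 15.9, 11.9 and 11.3 CPM in Emb knockdown, a log2 fold change of 0.38 ± 0.59 (SE, with a 95% interval of -0.90 to 1.67) that was -0.29 with library totals alone. Eif2ak4, the sensor of uncharged tRNA known as GCN2, had 14.1 to 71.3 CPM in WT and 29.7 to 59.5 CPM in Emb knockdown. Its log2 fold change was 0.28 ± 0.64 and was -0.41 with library totals alone. For Eif2ak2, the double-stranded RNA sensor PKR, the value was -0.06 ± 0.83, and for Eif2ak3, the endoplasmic reticulum sensor PERK, -0.04 ± 0.69; on the receptor scale these were 0.49 and 0.55. The intervals of all 4 kinases hold changes of more than 1 log2 unit in at least 1 direction, so changes of that size were not resolved.

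Of the cap-binding complex and its helpers 9 of 12 genes were tested, 4 higher and 5 lower, with 1 higher at an unadjusted p under 0.05; the median log2 fold change was -0.13, and 0.56 on the receptor scale. The gene at that p was Eif4g2 (ENSMUSG00000005610, chr7:111067750-111083030), which encodes DAP5, an eIF4G relative that lacks the eIF4E-binding part and serves cap-independent initiation. It stood at 107, 35.6, 31.2 and 32.3 CPM in WT and at 482, 532, 72.4 and 46.4 CPM in Emb knockdown. Emb knockdown replicates 1 and 2 lay far above every WT library, and the other pair lay below WT replicate 1. The fitted log2 fold change was 2.46 ± 0.96 (SE, with a 95% interval of 0.36 to 4.56; edgeR unadjusted p = 0.0255, adjusted p = 0.322), with 2.01 to 3.18 when each library was left out. Eif4g1, the main scaffold, did not show this: it had 10.3, 27.6, 35.8 and 64.6 CPM in WT and 21.3, 11.7, 16.2 and 31.3 CPM in Emb knockdown, a log2 fold change of -0.78 ± 0.65 that was -0.22 without WT replicate 4.

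Eif4e, the cap-binding protein itself, was among the 5 members with the highest counts per exonic kilobase in WT, with Eif5, Eif4e3, Eif3h and Eif3l. It was the steadiest of them, at 111, 110, 85.2 and 129 CPM in WT and 145, 35.0, 51.9 and 78.3 CPM in Emb knockdown. Of the Emb knockdown libraries, 3 lay below every WT library and 1 above. For this gene the log2 fold change was -0.49 ± 0.64 (SE, with a 95% interval of -1.90 to 0.91) and 0.20 on the receptor scale. Eif4e3, a tissue-restricted cap-binding relative, stood at 394, 103, 80.6 and 53.4 CPM in WT and 199, 85.9, 219 and 74.6 CPM in Emb knockdown, with a log2 fold change of -0.13 ± 0.81 that was 0.56 on the receptor scale. Eif4a2, a helicase paralog abundant in brain, had 3.45 to 11.4 CPM in WT and 2.66, 70.5, 17.3 and 11.3 CPM in Emb knockdown (1.75 ± 0.91). Eif4a1, its widely used paralog, was not tested, with 7, 17, 30 and 0 counts in WT and 3, 16, 10 and 7 counts in Emb knockdown.

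Among the regulators of eIF4E, Eif4enif1 (ENSMUSG00000020454, chr11:3202392-3244588) encodes 4E-T, which carries eIF4E into the nucleus and into P-bodies. Its level was 12.9, 5.75, 5.33 and 47.8 CPM in WT and 6.00, 9.01, 2311 and 26.9 CPM in Emb knockdown. Emb knockdown replicate 3 held 95.3% of the gene's summed CPM, and the other 7 libraries overlapped. The fitted log2 fold change was 5.04 ± 1.90 (SE; edgeR unadjusted p = 0.0218, adjusted p = 0.320) and -0.29 without that library. Eif4ebp2, the 4E-binding protein that predominates in brain, stood at 95.2, 43.7, 32.0 and 26.7 CPM in WT and at 95.3, 57.8, 177 and 62.7 CPM in Emb knockdown. The groups overlapped only through WT replicate 1, and the log2 fold change was 0.99 ± 0.68 (SE; edgeR adjusted p = 0.544). Eif4ebp1 had 0, 0, 7 and 0 counts in WT and 7, 4, 2 and 0 in Emb knockdown, and Eif4ebp3 had no count in any library.

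The elongation factor eEF1 had 5 of its 6 genes tested, 4 higher and 1 lower, with a median log2 fold change of 1.38 that was 0.59 with library totals alone and 1.64 on the receptor scale. Eef1b2, the guanine nucleotide exchange subunit (ENSMUSG00000025967, chr1:63176825-63180486), was the 1 gene of the complex at an unadjusted p under 0.05. It stood at 5.15, 23.0, 11.4 and 0 CPM in WT and at 16.7, 156, 25.9 and 34.5 CPM in Emb knockdown. Again 3 Emb knockdown libraries lay above every WT library, and Emb knockdown replicate 1 lay within them. Its log2 fold change was 2.53 ± 1.04 (SE, with a 95% interval of 0.25 to 4.81; edgeR unadjusted p = 0.0324, adjusted p = 0.334), and 1.33 without Emb knockdown replicate 2. The other exchange subunits, Eef1d and Eef1g, had log2 fold changes of 1.38 ± 0.81 and 1.00 ± 0.82. WT levels of Eef1d were 1.29 to 20.7 CPM and Emb knockdown levels 14.4 to 55.7 CPM. For Eef1g they were 2.30 to 27.4 and 13.8 to 24.9 CPM, and 68.0% of its 31-base words are shared with other transcripts. Eef1b2, Eef1d and Eef1g all passed the filter only through the Emb knockdown libraries, so the 4 to 1 split of the complex gives no support for a direction. Eef1e1, a scaffold of the multi-synthetase complex that bears the eEF1 name, stood at 19.3, 12.6, 12.9 and 4.22 CPM in WT and at 2.00, 0.530, 11.3 and 3.13 CPM in Emb knockdown (-1.50 ± 0.88).

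Eef1a1, in most tissues among the most abundant messenger RNAs of a cell, was barely counted. It had 19, 1, 38 and 9 counts in WT and 12, 18, 11 and 6 counts in Emb knockdown, and it did not pass the filter on low counts. Per exonic kilobase the WT libraries lay at 0.314 to 7.58 times the receptor background and the Emb knockdown libraries at 1.43 to 3.99 times. Of its 31-base words 74.8% occur in transcripts of other genes, and how reads with several matches were counted is unknown here. Eef1a2, the form that replaces it in mature neurons and muscle, stood at 0, 6.90, 12.2 and 1.41 CPM in WT and at 1.33, 22.8, 5.40 and 28.2 CPM in Emb knockdown, a log2 fold change of 1.41 ± 1.07 (SE; edgeR adjusted p = 0.591). Its 31-base words are shared with no other gene's transcripts.

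Eef2, the translocase (ENSMUSG00000034994, chr10:81176631-81182498), stood at 130, 35.6, 22.1 and 11.2 CPM in WT and at 1029, 85.9, 15.7 and 10.02 CPM in Emb knockdown. The value of 1029 CPM was that of Emb knockdown replicate 1, and the other 3 Emb knockdown libraries lay within or just below the WT range. The fitted log2 fold change was 2.52 ± 1.41 (SE; edgeR adjusted p = 0.456) with that library and -0.38 without it. Eef2k, the kinase that halts eEF2, had 8.05 to 41.8 CPM in WT and 7.33 to 81.1 CPM in Emb knockdown, a log2 fold change of 0.82 ± 0.85 that was -0.13 without Emb knockdown replicate 3. Of the 5 methyltransferase genes of eEF1A only Eef1aknmt was tested (0.37 ± 0.70, and -0.40 with library totals alone). Eef1akmt2 had 0, 0, 1 and 0 counts in WT and 3, 10, 159 and 10 in Emb knockdown. The hypusine-bearing factor eIF5A had 3, 8, 12 and 29 counts of Eif5a in WT and 11, 2, 1 and 7 in Emb knockdown, too few to pass the filter. Eif6, which keeps the ribosomal subunits from joining too early, had 6.43 to 26.7 CPM in WT and 3.24 to 22.0 CPM in Emb knockdown (-0.21 ± 0.71, 0.46 on the receptor scale and 0.20 without WT replicate 4).

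The TOP list holds 9 members: Eef1a1, Eef1b2, Eef1d, Eef1g, Eef2, Eif3e, Eif3f, Eif3h and Eif4b. Of these 8 were tested, 6 higher and 2 lower. At an unadjusted p under 0.05, 2 were higher (Eif3f and Eef1b2) and 0 lower, where 8.64% and 4.64% of all genes lay. Of the 6 higher, Eef1b2, Eef1d and Eef1g passed the filter only through the Emb knockdown libraries, so the split and the median give no support for a direction. Their median log2 fold change was 1.64 against 0.04 over all genes, and it was 0.58 without Emb knockdown replicate 1. Summed, the 9 genes stood at 389, 193, 170 and 163 CPM in WT and at 1666, 552, 430 and 245 CPM in Emb knockdown. Emb knockdown replicates 1, 2 and 3 lay above all WT libraries and replicate 4 lay among them. Few genes led these sums. Eef2 held 1029 CPM and Eif3e 319 CPM in Emb knockdown replicate 1, and Eif3f held 197 CPM and Eef1b2 156 CPM in replicate 2.

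Several factors come as a pair of related genes, and the share of the second gene was set beside the genotype. Eef1a2 held 0%, 85.7%, 29.6% and 10% of the Eef1a1 and Eef1a2 counts in WT and 14.3%, 70.5%, 47.6% and 88.2% in Emb knockdown. Eif4a2 held 41.7%, 15%, 33.3% and 100% of its pair in WT and 57.1%, 89.3%, 76.2% and 72% in Emb knockdown. For Eif5a2 the shares were 50%, 20%, 50% and 14.7% in WT and 42.1%, 66.7%, 96.4% and 68.2% in Emb knockdown. Each of these shares overlapped between the genotypes, though in each pair pooled counts gave a larger share in Emb knockdown: 68.0% against 25.6% for Eef1a2, 83.9% against 34.9% for Eif4a2 and 72% against 29.7% for Eif5a2. Totals per library were small, between 6 and 149 counts for these 3 pairs. Eif4g2 held 33.3% to 91.2% of the Eif4g1 and Eif4g2 counts in WT and 59.7% to 97.9% in Emb knockdown. These shares do not depend on the scaling of the libraries.

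**Figure D5:**
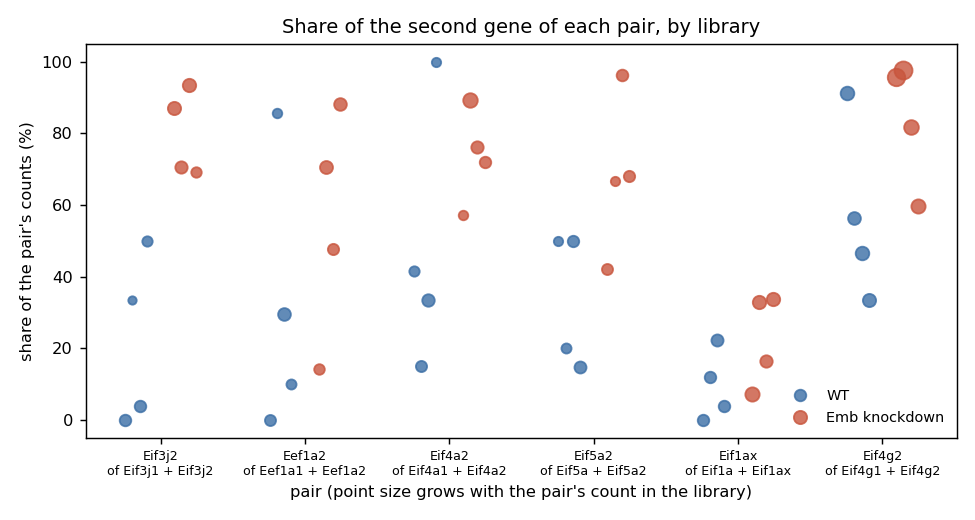
Share of the second gene in the counts of 6 gene pairs, in percent (y axis), 1 point per library, with the point area growing with the pair's count. The Eif3j2 share lies at or below 50% in WT and at or above 69.2% in Emb knockdown, and the other 5 pairs overlap between the genotypes.

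Genes that work with these factors were taken from 7 lists of the translation pathway. Over all genes, 8.64% were higher and 4.64% lower at an unadjusted p under 0.05, and 4.03% and 4.25% had no overlap. In the list of the eIF2 phosphatase and the integrated stress response, the branch downstream of the eIF2 kinases, 8 of 10 genes were tested, 6 higher and 2 lower, 3 higher and 0 lower at an unadjusted p under 0.05. The median log2 fold change was 1.35, and 0.06 without Emb knockdown replicate 1. Atf4, the transcription factor translated when eIF2 is phosphorylated, stood at 259, 58.6, 119 and 49.2 CPM in WT and at 914, 602, 454 and 477 CPM in Emb knockdown, a log2 fold change of 2.33 ± 0.77 (SE; edgeR adjusted p = 0.304). Ppp1r15a, the inducible subunit of the eIF2 phosphatase, stood at 39.9, 12.6, 12.2 and 0 CPM in WT and at 140, 78.5, 106 and 103 CPM in Emb knockdown, a log2 fold change of 2.72 ± 0.96 (edgeR adjusted p = 0.311). All 4 Emb knockdown libraries lay above all WT libraries for both genes. Ppp1r15a passed the filter on low counts only through the Emb knockdown libraries, where it was higher. Nck1, an adaptor that binds the phosphatase, had a log2 fold change of 2.78 ± 1.03.

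Of the termination, recycling and rescue list 7 of 10 genes were tested, 3 higher and 4 lower, 2 higher at an unadjusted p under 0.05, with a median of -0.14 that was 0.47 on the receptor scale. Etf1, the release factor that reads stop codons, stood at 5.15, 9.20, 4.56 and 9.84 CPM in WT and at 74.6, 48.2, 33.5 and 45.1 CPM in Emb knockdown. The genotypes did not overlap, and the log2 fold change of 2.81 ± 0.60 (SE; edgeR unadjusted p = 0.000563, adjusted p = 0.275) stayed between 2.56 and 3.07 without each library. Hbs1l, a rescue factor for stalled ribosomes, had 3.25 ± 1.03, and Denr, a reinitiation factor, -1.45 ± 0.69, or -0.68 without WT replicate 4. Etf1 and Hbs1l passed the filter on low counts only through the Emb knockdown libraries and Denr only through the WT libraries. In each case this was the genotype where the gene was higher.

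Of the poly(A)-binding list 8 of 9 genes were tested, 4 higher and 4 lower, 3 higher at an unadjusted p under 0.05. They were Larp4b (3.76 ± 1.39), Paip2 (2.41 ± 1.00) and Pabpc1 (2.90 ± 1.28), whose log2 fold changes were 0.40, 0.30 and 1.96 without Emb knockdown replicate 1. Pabpc1 passed the filter on low counts only through the Emb knockdown libraries, where it was higher. Of the list of mTORC1 and kinases acting on translation 14 of 15 were tested, 9 higher and 5 lower, 1 higher at that p. It was Rps6ka3, a kinase of the ribosomal S6 kinase family, with 2.15 ± 0.84, and 1.16 without Emb knockdown replicate 4. Another gene, 1 of the 14, had no overlap, with its Emb knockdown values below its WT values. Deptor, an inhibitor within mTORC1, had 2.24 ± 1.06 with Emb knockdown replicate 1 and -0.13 without it, and Rptor, its scaffold, 1.84 ± 0.98 with that library and 0.67 without. Of 22 tRNA synthetase genes 17 were tested, 11 higher and 6 lower, with Cars (1.70 ± 0.60) and Farsb (2.93 ± 1.14) higher and Lars (-1.29 ± 0.57) lower at an unadjusted p under 0.05. Farsb was led by Emb knockdown replicate 2 (205 CPM) and its value was 1.54 without that library. The 4 Lars values in Emb knockdown, 11.3 to 13.5 CPM, all lay below the WT values of 14.5 to 45.03 CPM. Lars passed the filter on low counts only through the WT libraries, where it was higher.

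Mitochondrial translation has its own factors, and they served as a comparison. Of 10 such genes 6 were tested, 1 higher and 5 lower, none at an unadjusted p under 0.05, with a median log2 fold change of -0.40 that was 0.22 on the receptor scale. Mtif3, a mitochondrial initiation factor, had -1.65 ± 0.81 (-1.09 without WT replicate 1), with all Emb knockdown values (0.666 to 15.7 CPM) below all WT values (15.98 to 57.9 CPM). Mtrf1l and Guf1 had -0.89 ± 0.72 and -0.65 ± 0.59, or -0.47 without WT replicate 1 and -0.14 without WT replicate 4. Mtif3 and Mtrf1l passed the filter on low counts only through the WT libraries, where they were higher. Of the enzymes that make the hypusine of eIF5A and the diphthamide of eEF2, 2 of 9 were tested, Dph5 (-0.76 ± 0.64, and -0.45 without Emb knockdown replicate 2) and Dph6 (-0.39 ± 1.19). Dph5 too passed the filter only through the WT libraries.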

How the data were processed

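The deposited table held raw whole-number counts per gene for 8 libraries, not normalized by the authors; per the submitters' processing notes cutadapt and the build mm10 were used, with aligner, counting rule and strand setting not given in the sources used here. Blank-symbol rows (at most 0.199% of a library's counts) named no gene by symbol but kept their identifiers. Symbols came from the table and coordinates from GENCODE M21 on GRCm38, in which all 89 members were found. Start windows came from RefSeq.

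The test was that of edgeR 4.0.16 under R 4.3.3 (filterByExpr, minimum count 10 and total 15; TMM; robust quasi-likelihood F test, genotype only), adjusted by Benjamini-Hochberg over 11353 genes at 0.05; a prior count of 2 went into log2 CPM. Standard errors came from the F statistic. The fit was checked on simulated counts. Reads carry no molecular identifiers.

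Alternatives were other scalings, limma 3.58.1 voom, DESeq2 1.42.0, no filter, thinning, a replicate block and each library left out. The members and lists were chosen with earlier results of these data known, and the receptor background after the data were seen. Named were Emb, members with an unadjusted p under 0.05 or no overlap, 18 core factors, the 5 highest per exonic kilobase in each genotype, and up to 3 genes of each pathway list by smallest p; subunits and pair partners named beside them were chosen after their values were seen. Znf598 and Mettl13 matched no symbol. The result of 1 marker gene is not reported here.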

Additional observations from a re-analysis of the deposited data

Results flagged for a closer look

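In 9 of 122 groups of 4 libraries (61 named genes in both genotypes), the highest library lay farther from the others, on the log2 CPM scale, than Dixon's 95% critical value of 0.829 allows; chance flags about 5% of groups. Emb knockdown replicate 1 was the library in 5 of them. It held 1180 CPM of Eif3c (72.7 to 102 in the other 3 Emb knockdown libraries), 1696 CPM of Eif5 (12.4 to 24.4), 2283 CPM of Larp4b (46.1 to 69.5), 667 CPM of Eif3b (6.89 to 15.7) and 776 CPM of Deptor (31.8 to 50.7). WT replicate 1 held 107 CPM of Eif4g2 (31.2 to 35.6 in the other WT libraries) and 139 CPM of Dph6 (3.04 to 4.60), and WT replicate 3 held 27.4 CPM of Eef1g (2.30 to 3.86). Emb knockdown replicate 2 held 15.9 CPM of Eif2ak1 (11.3 to 11.9).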

How the results depend on the processing

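No gene passed the edgeR adjusted p, while 1508 had an unadjusted p under 0.05. Past the adjusted p were 2 genes with library totals alone, 2 on the receptor scale, 749 by DESeq2 (6.6% of genes, 10% of members: Eif3i, Eif3f, Eif4g2, Eif3a and Eef1b2) and 910 without the filter (1.88%, against 6.9% of 87 members: Eef1akmt2, Eif4enif1, Eif3c, Eif3e, Eif3j2 and Eif3b); limma voom gave 0. All but Eif3j2 of the members called without the filter had 74.8% to 95.3% of their summed CPM in 1 Emb knockdown library. Members at an unadjusted p under 0.05 numbered 15 on the receptor scale, 16 without the filter and 6 to 11 with a library left out. Library totals alone gave 3 higher and 3 lower members (375 and 1704 of all genes), and the receptor scale 15 and 0 (1906 and 116). Members without overlap numbered 5 with library totals, 7 on the receptor scale, 4 without the filter and 4 to 9 with a library left out. The members' median was -0.39 with library totals, 0.81 on the receptor scale and -0.02 to 0.61 with a library left out. Emb fell under the filter with DESeq2 size factors, receptor scaling, ribosomal RNA rows out, thinning, and without each Emb knockdown library; elsewhere its log2 fold change was negative (-2.04 to -0.77).

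The replicate block gave 5 members at an unadjusted p under 0.05 (8.09% of all genes, 10% of members). Same-numbered libraries correlated at 0.011 to 0.034. Replicates 1 and 4 correlated best with their own number, and 2 and 3 did not. Whether the numbers pair the samples cannot be told from correlations this small. With the block the eIF3 median was 0.55.

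Of 977 values of 61 named genes under an alternative, 882 kept the direction and stayed short of the adjusted p, 21 passed it and 74 had the other direction, in 22 genes; the cause was not tested. With library totals these were Eif2ak1 (-0.29), Eif2ak4 (-0.41), Eif1a (-0.35) and Eef1aknmt (-0.40). On the receptor scale they were Eif4e (0.20), Eif2s1 (0.61), Eif2ak2 (0.49), Eif2ak3 (0.55), Eif4e3 (0.56), Eif3h (0.51), Eif3k (0.49), Eif2s3y (0.59), Eif2b3 (0.27), Eif6 (0.46) and Dph6 (0.31). Without the filter they were Eif2s1 (0.22), Eif2ak2 (0.19), Eif2ak3 (0.19), Eif4e3 (0.14), Eif3k (0.12), Eif2s3y (0.077), Eif6 (0.037) and Eif3h (0.26). With voom they were Eif2ak3 (0.13), Eif4e3 (0.17), Eif3l (0.66), Eif3k (0.62) and Dph6 (1.25), and with the replicate block Eif2ak3 (0.15), Eif4e3 (0.16), Eif3l (0.76), Eif3k (0.33), Eif3b (-0.44) and Dph6 (1.27). DESeq2 size factors turned Eif2s1 (0.010), rows of ribosomal RNA left out turned Eif3h (0.012), and thinning turned Eif2ak3 (0.087), Eif3k (0.020) and Eif3h (0.032). With each library left out, values ran from -0.29 to 6.25 for Eif4enif1, -0.38 to 3.73 for Eef2, -0.49 to 0.40 for Eif2s1, -0.96 to 0.44 for Eif2ak2, -0.36 to 0.56 for Eif2ak3 and -0.13 to 1.66 for Eef2k. They ran from -5.86 to 3.56 for Eif5, -0.36 to 0.94 for Eif4e3, -1.70 to 1.10 for Eif3h, -1.34 to 2.27 for Eif3l, -0.13 to 2.63 for Deptor, -0.74 to 2.91 for Dph6, -1.22 to 3.57 for Eif3b, -0.46 to 0.78 for Eif3k, -0.10 to 0.71 for Eif1a, -0.63 to 0.64 for Eif2s3y, -0.80 to 0.052 for Eif2b3 and -0.49 to 0.20 for Eif6.

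Depth limits these values: WT libraries had at least 10 counts of 30 to 51 of the 69 known factors and Emb knockdown libraries of 48 to 51, or 27 to 45 and 33 to 36 after thinning.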
